A study of Mus musculus with 23 samples.

Results

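The genes described here are 4 nuclear receptors for steroid hormones that the deposited table lists by symbol, Esr1, Pgr, Nr3c1 and Nr3c2, out of 13766 gene records. They were taken by name, with earlier results of these data known. Hippocampal RNA came from 23 mice of the FCG model on a C57Bl/6J background, collected at about 12 months of age. Ovaries were present in 5 XX animals (XXF) and 6 XY animals (XYF), and testes in 6 XX animals (XXM) and 6 XY animals (XYM). The model moves Sry, the gene that starts testis formation, from the Y chromosome to an autosome, so that gonad and sex chromosomes are inherited apart. Animals with testes therefore carry the transgene and animals with ovaries do not, and the gonad and the transgene cannot be told apart. Cages were formed after weaning by the look of the genitalia, so cage type also follows the gonad, and hormone levels and oestrous stage were not used here. Each library came from a different animal.

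Steroid receptors are transcription factors that sit with chaperone proteins until a hormone binds them, then attach to DNA and raise or lower the expression of nearby genes. In the hippocampus the mineralocorticoid receptor (Nr3c2) binds corticosterone with high affinity and is largely occupied at rest, while the glucocorticoid receptor (Nr3c1) binds it less tightly and fills during stress and at the daily peak. Oestrogen receptor alpha (Esr1) and the progesterone receptor (Pgr) respond to ovarian hormones, and Pgr is itself a classical target of oestrogen.

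Library totals over the listed genes ran from 10257751 to 36078221 reads, and the shallowest library of each sex chromosome background was one with ovaries (10257751 in XXF, 11548107 in XYF, against lowest totals of 21143397 in XXM and 15921603 in XYM). The labels of sex chromosomes were checked with Xist and Ddx3y. All XX libraries held at least 936 CPM (reads of a gene scaled to library size) of Xist, and all XY libraries at least 49.2 CPM of Ddx3y, against at most 0.437 CPM in XX. XYF replicate 4 also held 94.1 CPM of Xist, where the next XY library held 2.86 CPM. It stands apart for that reason. Genes that mark hippocampal subfields were present, with summed levels of 532 to 733 CPM over 5 of 5 CA1 markers and 193 to 383 CPM over 6 of 6 dentate gyrus markers, while 0 of 9 hypothalamic and preoptic markers, including Avp, Oxt and Pomc, were among the genes of the table. The choroid plexus, which lies against the hippocampus, was present very unevenly: its 7 markers summed to between 56.4 and 3320 CPM. By a mean marker level above 5 on the log2 CPM scale, 4 of 6 XXM libraries were rich in it, against 1 of 5 XXF, 1 of 6 XYF and 1 of 6 XYM libraries. In bulk tissue, fewer cells of a type and less RNA per cell cannot be told apart.

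The receptors differed widely in level. Per kilobase of merged exon, Nr3c2 stood at 24.6 ± 2.50 CPM (SD, n = 23), Nr3c1 at 15.2 ± 1.11 CPM, Pgr at 3.32 ± 0.395 CPM and Esr1 at 0.169 ± 0.0460 CPM. The order from Nr3c2 through Nr3c1 and Pgr to Esr1 held in 23 of 23 libraries, and also in 23 of 23 when the longest coding transcript of each gene was used as its length. The step between neighbours was smallest at the top. Nr3c2 stood a median of 1.60 times above Nr3c1 (range 1.28 to 1.86), Nr3c1 4.77 times above Pgr (3.52 to 5.57), and Pgr 20.2 times above Esr1 (11.6 to 39.3). The size of the last step depends on the length taken for Esr1, whose merged exons span 13661 bases and whose longest coding transcript has 6339, and was 11.6 times with the latter. The corticosteroid receptors made up most of the measured message of these 4 genes.

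**Figure D1:**
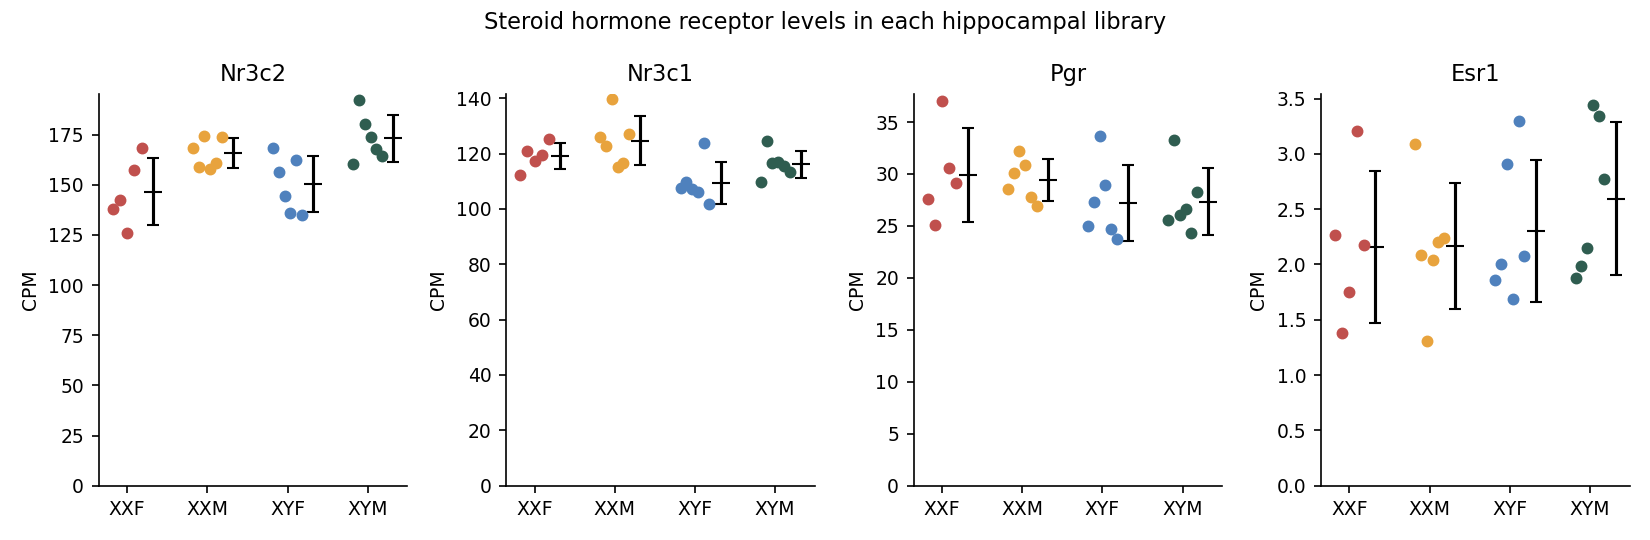
Level of each receptor gene in CPM (vertical axes, each starting at 0) for every library, by group (F for ovaries, M for testes, after the sex chromosomes); black bars are the group mean and SD. Nr3c2 sits at 158 to 192 CPM in all libraries with testes, and 8 of the 11 libraries with ovaries lie below that range. In each sex chromosome background the groups with ovaries and with testes overlap for all 4 genes.

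The lower-level genes, Pgr and Esr1, were measured less precisely than the corticosteroid receptors. Within groups the coefficient of variation was 5.76% for Nr3c1, 8.38% for Nr3c2, 12.1% for Pgr and 28.3% for Esr1. Counting error alone would give 2.08%, 1.80%, 4.24% and 15.5%. Esr1 had only 14 to 117 reads in a library, so more of its spread than that of the others is counting error. It was also the 1 receptor that did not meet the authors' minimum of 20 reads in every library of every group. It met that minimum only in XXM and XYM, and entered the table through them, while the shallowest libraries were in the groups with ovaries.

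The mineralocorticoid receptor gene Nr3c2 (gene 110784, chromosome 8, 76902508 to 77243639, plus strand, mm10) showed the largest gonadal difference of the 4 relative to its error. In XX animals with ovaries its levels were 138, 142, 126, 158 and 168 CPM. With testes the XXM libraries ran from 158 CPM through a median of 165 to 174 CPM. All 6 XXM libraries lay above the XXF median, and 4 of 5 XXF libraries lay below every XXM library, the exception being XXF replicate 5 at 168 CPM. XXF averaged 146 ± 16.6 CPM (SD, n = 5), and XXM averaged 166 ± 7.38 CPM (SD, n = 6).

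The same ordering was seen in XY animals. XYF libraries ran from 135 CPM through a median of 150 to 168 CPM, and XYM libraries from 161 CPM through 171 to 192 CPM. All 6 XYM libraries lay above the XYF median, 4 of 6 XYF libraries lay below every XYM library, and the groups overlapped. XYF averaged 150 ± 14.04 CPM, and XYM averaged 173 ± 11.6 CPM (SD, n = 6 each).

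Differences were tested with edgeR's quasi-likelihood test fitted to all genes and groups, with Benjamini-Hochberg adjustment over all 13766 genes and a gene called at an adjusted p under 0.05. Standard errors were derived from the log2 fold change and its F statistic and are approximate. With testes, Nr3c2 was higher by a log2 fold change of 0.18 ± 0.07 (SE) in XX, a fold of 1.13 with a 95% interval from 1.02 to 1.25 (edgeR adjusted p = 0.633). In XY the log2 fold change was 0.20 ± 0.07, a fold of 1.15 with an interval from 1.05 to 1.26 (edgeR adjusted p = 0.388). Averaged over both backgrounds it was 0.19 ± 0.05, a fold of 1.14 with an interval from 1.07 to 1.22 (edgeR adjusted p = 0.104). By p it ranked 63 among the 13766 genes in that average, and all 12 libraries with testes lay above the median of the libraries with ovaries. It failed the correction in each of these 3 comparisons. With DESeq2 it passed for the averaged effect (adjusted p = 0.0292, log2 fold change 0.19), and with edgeR it passed when XXF replicate 5 was left out (adjusted p = 0.0314, log2 fold change 0.22). Both settings also called more of all genes than the main fit, 85 against 22 without XXF replicate 5. Over the 32 alternatives its averaged log2 fold change ran from 0.11 to 0.22 and its adjusted p from 0.0292 to 0.930.

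Markers of the dentate gyrus moved the same way. In the averaged comparison all 6 had a positive value with testes, their median being 0.25 on the log2 scale, and 0 of the 6 were called. Their summed level ran from 193 through a median of 280 to 288 CPM in XXF, from 275 through 293 to 336 CPM in XXM, from 218 through 302 to 336 CPM in XYF and from 300 through 315 to 383 CPM in XYM. The XYM libraries lay highest and the XXF libraries lowest, with overlap between neighbouring groups. Of the CA1 markers 1 of 5 was positive, with a median of -0.04. Nr3c2 is itself expressed across the pyramidal and granule cell layers. With the CA1 minus dentate gyrus marker score in the fit, the averaged log2 fold change of Nr3c2 was 0.11 (edgeR adjusted p = 0.930), over 1.5 times smaller than without it, and the XX value was 0.07. With the choroid plexus score in the fit it was 0.19 (adjusted p = 0.110). Without the 7 libraries rich in choroid plexus markers, an alternative chosen after seeing the data, it was 0.20 (adjusted p = 0.658). Without XYF replicate 4 it was 0.18 (adjusted p = 0.168). The part of tissue make-up in the Nr3c2 difference was not tested.

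**Figure D2:**
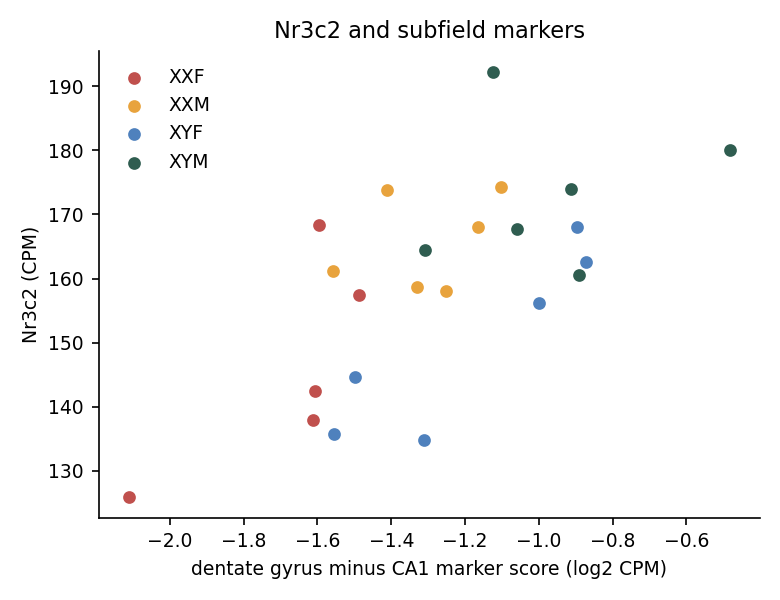
Nr3c2 in CPM (vertical axis, not starting at 0) against the mean log2 CPM of 6 dentate gyrus markers minus that of 5 CA1 markers (horizontal axis), 1 point per library, coloured by group. XXF replicate 3, at 126 CPM, is lowest on both axes, and all 12 libraries with testes lie at 158 CPM or above. Dentate gyrus markers also moved with the gonad, and the part of subfield make-up in the Nr3c2 difference was not tested.

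The glucocorticoid receptor gene Nr3c1 (gene 14815, chromosome 18, 39410545 to 39487245, minus strand, mm10) varied least of the 4. In XXF its levels were 112, 121, 117, 119 and 125 CPM. They ran from 115 through a median of 124 to 140 CPM in XXM, from 102 through 107 to 124 CPM in XYF, and from 110 through 116 to 125 CPM in XYM. XYF was the lowest group: 5 of its 6 libraries lay below every XYM library, and the exception was XYF replicate 5 at 124 CPM, the only XYF library rich in choroid plexus markers.

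With testes Nr3c1 was higher by a log2 fold change of 0.07 ± 0.05 in XX (edgeR adjusted p = 0.773) and 0.09 ± 0.05 in XY (edgeR adjusted p = 0.649), and by 0.08 ± 0.04 on average (edgeR adjusted p = 0.370). None of the 3 passed. With the CA1 minus dentate gyrus score in the fit the XX value was 0.02 and the averaged value 0.04. The XX value was 0.03 without XXM replicate 3 and 0.04 without XXF replicate 1 or without the libraries rich in choroid plexus markers, and without the latter the XY value was 0.15. The averaged fold was 1.05 with a 95% interval from 0.999 to 1.11, so gonadal differences beyond about that upper bound lie outside the interval. Along the other axis of the design Nr3c1 was lower in XY than in XX, with a log2 value of -0.11 ± 0.04 (edgeR adjusted p = 0.478), a fold of 0.925 with an interval from 0.877 to 0.976. It ranked 166 by p among 13766 genes and failed the correction. XXF averaged 119 ± 4.70 CPM (SD, n = 5) and XXM 125 ± 8.90 CPM, while XYF averaged 109 ± 7.59 CPM and XYM 116 ± 4.92 CPM (SD, n = 6 each). Over the 32 alternatives the value stayed negative, from -0.16 to -0.09, with adjusted p from 0.202 to 0.797. Subfield and choroid plexus markers also differed along this axis. In XY against XX 0 of 5 CA1 markers were positive, with a median of -0.14, 6 of 6 dentate gyrus markers, with a median of 0.18 and 1 called by edgeR, and 0 of 7 choroid plexus markers, with a median of -0.52. With the CA1 minus dentate gyrus score in the fit the Nr3c1 value was -0.16 and with the choroid plexus score -0.11. The sex chromosome value of Nr3c2 was 0.05 ± 0.05 (edgeR adjusted p = 0.921) and turned to -0.07 with the CA1 minus dentate gyrus score in the fit.

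The balance between the receptors that share corticosterone as a ligand was described as the ratio of Nr3c2 to Nr3c1 per kilobase of merged exon in each library. In XXF it was 1.46, 1.40, 1.28, 1.56 and 1.60. It ran from 1.48 through a median of 1.60 to 1.64 in XXM, from 1.52 through 1.59 to 1.85 in XYF and from 1.72 through 1.75 to 1.83 in XYM. Every XYM library therefore lay above every XX library of either gonad, while XYF overlapped all 3 other groups. How many other gene ratios separate these groups in this way was not counted, so whether the separation is unusual is not known. The ratio averaged 1.46 ± 0.130 in XXF (SD, n = 5), 1.58 ± 0.0643 in XXM, 1.63 ± 0.124 in XYF and 1.77 ± 0.0521 in XYM (SD, n = 6 each). Subfield markers, given above, differ between XX and XY, and those of the dentate gyrus also moved with the gonad. By median, the summed level of the dentate gyrus markers was lowest in XXF and highest in XYM, as was this ratio. The part of subfield make-up in the ratio was not tested. These ratios are a description and were not tested, since both genes were chosen with earlier results of these data known.

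**Figure D3:**
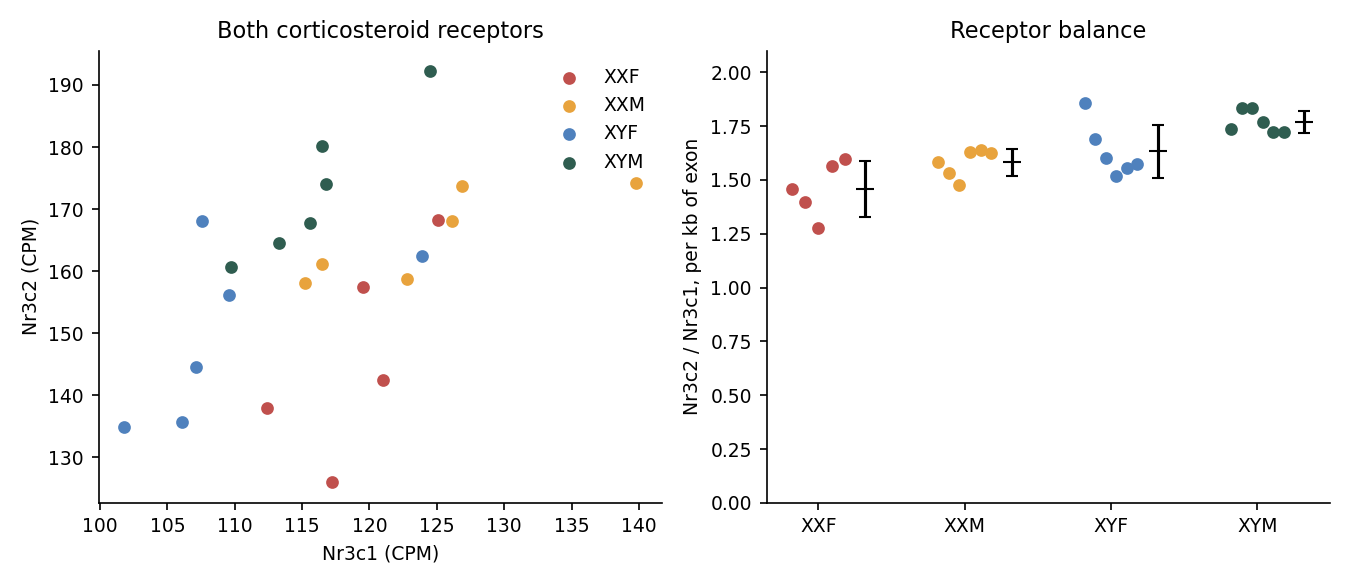
Left, Nr3c2 against Nr3c1 in CPM for each library (axes not starting at 0); right, their ratio per kilobase of exon by group, with the mean and SD in black. The 6 XYM ratios lie between 1.72 and 1.83, above all 11 XX ratios, of which the highest is 1.64. How many other gene ratios separate in this way was not counted.

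Across the 23 libraries the log2 CPM of Nr3c1 and Nr3c2 went together. Pearson's r was 0.520 (permutation p = 0.0109, adjusted p = 0.0653 over 6 pairs of receptors) and Spearman's rho was 0.545 (permutation p = 0.00825, adjusted p = 0.0495). Libraries were shuffled across groups, so differences between groups enter these p-values. The genes were also chosen with earlier results of these data known, so the p-values are descriptive. Without the 2 libraries farthest from the Nr3c1 median r was 0.414. With the group means subtracted r was 0.656, and it was positive inside each group, from 0.627 in XYF to 0.950 in XYM, over 5 or 6 libraries each. All these values share library depth and tissue make-up, whose part was not tested. For the other 5 pairs r lay between -0.171 and 0.292 with permutation adjusted p of at least 0.527. Without the 2 libraries farthest from the median of the first gene of each pair these ran from -0.0416 to 0.506, the last being Pgr with Nr3c1, so that r for that pair was then higher than for Nr3c1 with Nr3c2.

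The progesterone receptor gene Pgr (gene 18667, chromosome 9, 8899833 to 8968611, plus strand, mm10) showed no gonadal difference beyond its spread. The XXF libraries stood at 27.5, 25.1, 37.1, 30.6 and 29.1 CPM. XXM ran from 27.0 through a median of 29.3 to 32.2 CPM, XYF from 23.8 through 26.2 to 33.6 CPM and XYM from 24.3 through 26.4 to 33.3 CPM. All 4 groups overlapped, and the highest single library was XXF replicate 3. The log2 fold change with testes was -0.03 ± 0.10 in XX (edgeR adjusted p = 0.956), 0.01 ± 0.09 in XY (edgeR adjusted p = 0.989) and -0.01 ± 0.07 on average (edgeR adjusted p = 0.966). The averaged fold of 0.994 had a 95% interval from 0.904 to 1.09. In XY against XX the log2 change was -0.13 ± 0.07 (edgeR adjusted p = 0.792), and 2 of 12 XY libraries lay above the XX median. It was -0.0016 with the CA1 minus dentate gyrus score in the fit and -0.08 without XXF replicate 3.

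Oestrogen receptor alpha, Esr1 (gene 13982, chromosome 10, 4612046 to 5003761, plus strand, mm10), was close to the lower limit of the table. Its levels in XXF were 2.27, 1.38, 1.75, 3.20 and 2.17 CPM. XXM ran from 1.31 through a median of 2.15 to 3.09 CPM, XYF from 1.68 through 2.04 to 3.30 CPM, and XYM from 1.88 through 2.46 to 3.44 CPM. The groups overlapped over nearly their whole range. The log2 fold change with testes was -0.04 ± 0.23 in XX (edgeR adjusted p = 0.973), 0.18 ± 0.22 in XY (edgeR adjusted p = 0.831) and 0.07 ± 0.16 on average (edgeR adjusted p = 0.883), and that of XY against XX was 0.15 ± 0.16 (edgeR adjusted p = 0.931). Single libraries moved these values: the averaged one ran from 0.0025 without XXM replicate 1 to 0.18 without XXF replicate 4, and the sex chromosome one from 0.09 without XYF replicate 5 to 0.26 without XXF replicate 4. By voom the latter was 0.02. The XY gonad value was 0.09 without XYM replicate 4 and 0.40 without the libraries rich in choroid plexus markers. At this depth the averaged gonadal interval, from 0.833-fold to 1.32-fold, leaves room for differences larger than the one measured for Nr3c2.

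**Figure D4:**
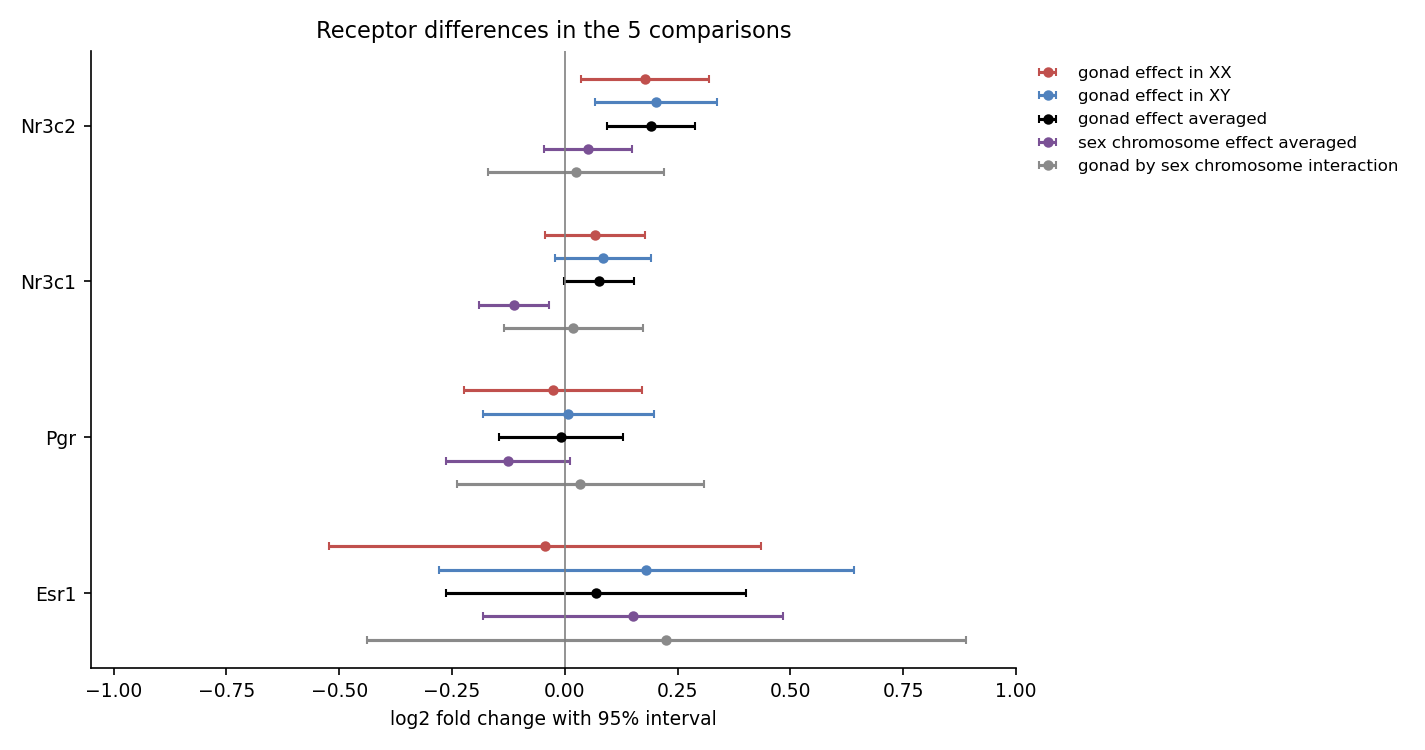
Log2 fold change (horizontal axis) with its 95% interval for each receptor in the 5 comparisons: testes minus ovaries in XX, in XY and averaged, XY minus XX averaged, and the interaction, which is the gonad effect in XY minus that in XX. The Nr3c2 intervals for the 3 gonad comparisons lie above 0, that of Nr3c1 for the sex chromosomes lies below 0, and those of Esr1 are the widest; by edgeR 0 of the values passed the correction over all genes, and by DESeq2 only Nr3c2 in the gonad average did.

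In all, 0 of the 4 receptors were called by edgeR in any of the 5 comparisons. Among all genes 0% were called for the gonad effect in XX, 0.225% in XY and 0.160% on average, 0.283% for the sex chromosome effect and 0% for the interaction, so 0 of 4 is near the background. At an unadjusted p under 0.05, Nr3c2 was counted in XX (background 7.71%), in XY (8.63%) and in the gonad average (13.6%), and Nr3c1 for the sex chromosomes (6.78%). DESeq2 called 1 of the 4, Nr3c2 in the gonad average, and 0 elsewhere. It also called more of all genes in that average than edgeR did, as the counts in the closing section show. The gonad effect was also compared between backgrounds by the interaction, XY minus XX. Its log2 value was 0.02 ± 0.10 for Nr3c2, 0.02 ± 0.07 for Nr3c1, 0.03 ± 0.13 for Pgr and 0.22 ± 0.32 for Esr1, and the edgeR adjusted p was 0.999 for each, with 0 of the 4 at an unadjusted p under 0.05 where 3.23% of all genes were. The interval for Nr3c2 ran from 0.889-fold to 1.16-fold.

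Other genes of steroid signalling were read from lists of 93 different genes, of which 80 were in the table. 0 of the 80 were called in any of the 5 comparisons with edgeR. For the averaged gonad effect 20 had an unadjusted p under 0.05, against 13.6% of all genes. In XX alone 5 of the 80 did, against 7.71% of all genes, and in XY alone 19, against 8.63%. Oestrogen receptor beta (Esr2), the membrane oestrogen receptor Gper1, aromatase (Cyp19a1) and 11-beta-hydroxysteroid dehydrogenase 2 (Hsd11b2) were among the 13 not analysed here.

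Among other steroid receptors and their membrane or orphan relatives, 13 of 15 were in the table and 3 of the 13 had a positive averaged gonad value, with a median of -0.07. Over all genes 49.0% were positive and the median was -0.0022. The lowest was the orphan receptor gene Esrrb at -0.54 ± 0.34 (edgeR adjusted p = 0.496). In XYF replicate 4, the XY library with the highest Xist level, Esrrb stood at 16.8 CPM, where the next XYF library held 3.50 CPM and the highest library of the other groups 2.69 CPM. Without that library the value was 0.04 (edgeR adjusted p = 0.951), and 5 of the 13 were then positive.

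The chaperones that hold the receptors ready for ligand had a median of -0.04, with 4 of 14 positive. That median was -0.02 with 6 of 14 positive without XXF replicate 5 or XYF replicate 6, and -0.01 with 7 of 14 positive by voom. They ran from Cdc37, a co-chaperone of Hsp90, at -0.11 ± 0.05 (edgeR adjusted p = 0.348) to Hspa4, a member of the Hsp70 family, at 0.03 ± 0.04 (edgeR adjusted p = 0.776). The coregulators, which link bound receptors to the transcription machinery, lay on the other side of 0 with a median of 0.07 and 14 of 18 positive, and a median of 0.02 and 13 of 18 without the libraries rich in choroid plexus markers. They ran from Safb, a nuclear matrix protein that represses oestrogen receptor activity, at -0.11 ± 0.05 (edgeR adjusted p = 0.367) to the corepressor Nrip1 at 0.13 ± 0.08 (edgeR adjusted p = 0.465).

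Of the enzymes that make or break down steroids, 18 of 24 were in the table, with a median of -0.01 and 8 of 18 positive, a median close enough to 0 that its sign changed between alternatives (-0.02 to 0.01). Cyp7b1, which hydroxylates neurosteroids and oxysterols, was highest at 0.16 ± 0.07 (edgeR adjusted p = 0.294), and the sulfotransferase gene Sult1a1 lowest at -0.27 ± 0.10 (edgeR adjusted p = 0.257). Neither passed.

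The genes known to respond to corticosteroids stood lowest of the lists. Of 15 in the table, 3 had a positive averaged gonad value and the median was -0.19. An unadjusted p under 0.05 on the lower side was seen for 10 of 15, where the background was 7.14% of all genes, and 0 passed the correction. The list was chosen with earlier results of these data known, so this count is a description and not a test of the list. The lowest was the cell cycle inhibitor Cdkn1a at -0.39 ± 0.12 (edgeR adjusted p = 0.180), which ran from 6.88 to 10.1 CPM in XXF, 4.91 to 8.05 in XXM, 5.01 to 10.4 in XYF and 4.21 to 6.88 in XYM. The highest was the transcription factor gene Zbtb16 at 0.07 ± 0.07 (edgeR adjusted p = 0.668). Nfkbia, the inhibitor of NF-kappaB, was named after its values were seen, as the gene of this list with the smallest p, and stood at -0.32 ± 0.08 (edgeR adjusted p = 0.131). With DESeq2 it was the 1 gene of the list that passed (adjusted p = 0.0378). Fkbp5, a chaperone that lowers glucocorticoid receptor affinity and is a known receptor target, was also named after its values were seen. It stood at -0.04 ± 0.06 (edgeR adjusted p = 0.797) and does not stand for the list. Tsc22d3 was at -0.31 ± 0.12 (edgeR adjusted p = 0.259), Sgk1 at -0.30 ± 0.14 (edgeR adjusted p = 0.345) and Per1 at -0.19 ± 0.08 (edgeR adjusted p = 0.319). These were likewise named after their values were seen, and 3 of the 15 were positive. The averages hide unlike backgrounds for Sgk1, at -0.10 in XX and -0.51 in XY, and for Nfkbia, at -0.175 and -0.468. The XYF libraries ran from 53.9 to 150 CPM for Sgk1. Tsc22d3 was at -0.25 in XX and -0.36 in XY, and Per1 at -0.21 and -0.17. In XX alone the list median was -0.16 and in XY alone -0.25, with 2 and 8 of 15 on the lower side at an unadjusted p under 0.05, where the backgrounds were 3.72% and 4.66%. For the sex chromosomes the list median was 0.03.

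The averaged median of the corticosteroid-responsive list stayed between -0.22 and -0.16 under the 32 alternatives, while the count at an unadjusted p under 0.05 was less stable. It was 6 of 15 without XXF replicate 1, 3 of 15 with the CA1 minus dentate gyrus score in the fit, where 2.90% of all genes were counted, and 6 of 15 without the libraries rich in choroid plexus markers, where 2.92% were. The choroid plexus markers went opposite ways in the backgrounds: with testes 7 of 7 were positive in XX, with a median of 1.76, and 0 of 7 in XY, with a median of -0.26. Of the dentate gyrus markers 6 of 6 were positive in XX, with a median of 0.27, and 5 of 6 in XY, with a median of 0.22. Of the microglial markers 4 of 5 were positive in XX, with a median of 0.02, and 1 of 5 in XY, with a median of -0.13. By edgeR 0 of these markers were called in either background, and the part of these cells in the list's values was not tested.

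Of the oestrogen-responsive list only 5 of 10 genes were in the table, Pgr among them, with a median averaged gonad value of 0.06. With 5 genes that median moved widely, from 0.0041 without the libraries rich in choroid plexus markers and 0.01 without XXM replicate 3 to 0.11 without XYF replicate 3. They ran from Cited2 at -0.14 ± 0.07 (edgeR adjusted p = 0.394) to Nrip1, which the coregulator list also holds.

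**Figure D5:**
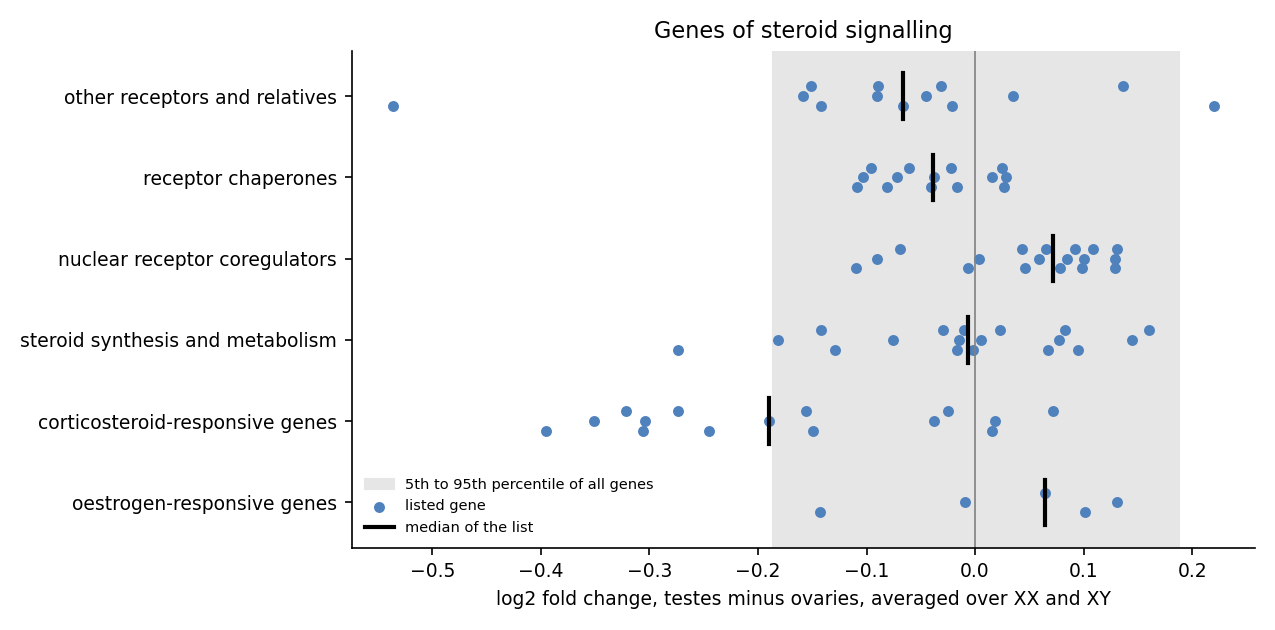
Log2 fold change with testes against ovaries, averaged over XX and XY (horizontal axis), for each gene of 6 lists of steroid signalling; black bars are list medians and the grey band is the 5th to 95th percentile of all 13766 genes. The corticosteroid-responsive list has the lowest median, at -0.19. All lists were chosen with earlier results of these data known. By edgeR 0 genes of any list were called, and DESeq2 called Nfkbia.

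The genes whose levels followed each receptor most closely were taken as the 3 with the highest Pearson correlation of log2 CPM over 23 libraries. They are given without a test, since they were picked as the extremes of all genes from libraries that share depth and tissue make-up. For Nr3c2 they were Zeb2 (r = 0.941), Shisa6 (0.901) and Tanc1 (0.886). Zeb2 is a zinc finger transcriptional repressor, Shisa6 an auxiliary subunit of AMPA receptors and Tanc1 a postsynaptic scaffold. The same 3 led with group means subtracted, at 0.914, 0.853 and 0.858. For Nr3c1 they were Pls1, an actin-bundling plastin (0.806), the metabotropic glutamate receptor gene Grm3 (0.776) and the mRNA capping enzyme gene Rngtt (0.763). With group means subtracted they were Sp3 (0.800), Fermt2 (0.788) and Pls1 (0.775).

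For Pgr the closest were Fut9, a fucosyltransferase of neural glycans (0.855), Rgs17, a regulator of G protein signalling (0.836), and the protocadherin gene Pcdh7 (0.831), and with group means subtracted Fut9 (0.874), Pcdh7 (0.863) and the guanylate cyclase subunit gene Gucy1a2 (0.841). Esr1 had the weakest leading values, with the copine gene Cpne7 (0.753), Tmem194 (0.718) and Tro (0.693), and with group means subtracted Cpne7 (0.745), the glutaminyl-tRNA synthetase gene Qars (0.738) and Tmem194 (0.707). No gene was among the leading 3 of more than 1 receptor. By Spearman's rho, 1 or 2 of each 3 stayed among the leading 3, and with group means subtracted the gene closest to Nr3c1 was then Nr3c2.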

How the data were processed

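Per the labels' protocols, total RNA from frozen hippocampi was depleted of ribosomal RNA, strand-specific libraries were made from 500 ng, and both ends were read for 100 bases. The deposited table gives estimated counts per gene, which per the file headers are raw values, and log2 normalized values made by the authors. The authors' filter, per the file headers, required a count of 20 or more in 100% of libraries within any 1 of the 4 groups. The submitters' processing notes name mm10 and DESeq. Not given in the sources used here are the aligner, the counting program and the use of strand.

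Estimated counts were rounded. All 23 libraries entered edgeR (version 4.0.16, R version 4.3.3) with TMM factors, filterByExpr, which removed none of 13766 genes, 1 mean per group and 5 contrasts. CPM used TMM-scaled totals, and log2 CPM a prior count of 2. Alternatives used DESeq2 (version 1.42.0), limma (version 3.58.1), other factors, filters and covariates, and each library left out. Gene lengths came from the GENCODE M21 annotation (GRCm38). The steps were tested on simulated data.

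The members and lists were chosen with earlier results of these data known. Named genes were the receptors, the highest and lowest gene of each list in the averaged gonad effect and any list gene called, and the 3 genes most like each receptor. The single-gene values of 1 listed gene are not reported here. Replicate numbers follow accession order and pair nothing. P-values of the fits compare a difference between groups with the spread between these animals.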

Additional observations from a re-analysis of the deposited data

Results flagged for a closer look

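The Nr3c1 level of XYF replicate 5, at 123.9 CPM, lay far from the other 5 XYF libraries by a test of gaps within a group. Of 20 groups of values tested in this way it was the only one, and chance gives about 1 in 20. Without this library the averaged gonad value of Nr3c1 was 0.10 on the log2 scale (edgeR adjusted p = 0.173) and its sex chromosome value -0.13 (edgeR adjusted p = 0.202). The part of choroid plexus RNA in this library in its Nr3c1 level was not tested.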

How the results depend on the processing

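Of the comparisons of an alternative with its reported value, 962 stayed the same, 33 fold changes turned sign, 29 values moved and 2 newly passed. A fold change stayed the same if it kept its sign and side of the threshold. A count of calls did if it changed by no more than 1.5 times. Mean levels had to stay within their SD and list medians within their median SE. For the genes most like a receptor, at least 2 of the leading 3 had to be shared. Reported counts of called genes were 0 for the gonad effect in XX, 31 in XY, 22 averaged, 39 for the sex chromosomes and 0 for the interaction. DESeq2 called 1, 47, 98 and 60 genes for the first 4, and 1 receptor, Nr3c2, in the gonad average (log2 0.19). With voom and sample quality weights the average gave 76 and the sex chromosomes 68, with the choroid plexus score 41 and 61, and with the CA1 minus dentate gyrus score 9 and 21. Fitting only the 2 groups compared gave 15 in XY. Leaving out the libraries rich in choroid plexus markers, chosen after seeing the data, gave 24 for the sex chromosomes. The cause of these shifts was not tested.

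Values near 0 turned sign. Esr1 in XX was 0.013 with limma on the authors' values. With the choroid plexus score and the subfield score in turn, Pgr was 0.011 and 0.095 in XX, 0.0088 and 0.086 averaged, and -0.0048 and -0.019 for the interaction. With voom Pgr was -0.022 in XY and -0.0016 for the interaction. Nr3c2 for the sex chromosomes was -0.066 with the subfield score.

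With each library left out, called genes ranged from 19 to 50 in XY, 17 to 85 averaged and 0 to 3 for the interaction (1 without XYF replicate 1, 3 without XYM replicate 1). The XY count was 50 without XYM replicate 1, 20 without XYF replicate 2 or XYM replicate 2, and 19 without XYM replicate 4, 5 or 6. The averaged count was 85 without XXF replicate 5, 49 without XYM replicate 1, 42 without XYF replicate 1 and 34 without XYF replicate 5. Receptors called on average ranged from 0 to 1, and Nr3c2 from 0.17 to 0.22. Ranges that crossed 0 were -0.18 to 0.17 for Esr1 in XX; for Pgr -0.081 to 0.063 in XX, -0.053 to 0.075 in XY, -0.040 to 0.035 averaged and -0.055 to 0.10 for the interaction; and for the interaction of Nr3c1 -0.0016 to 0.058 and of Nr3c2 -0.024 to 0.075. No paired analysis was possible because the labels give animal numbers that no groups share. Depth limits Esr1 most, at 14 to 117 reads a library.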
